A study of Mus musculus with 8 samples.

Results

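The transcripts of the mitochondrial genome were followed in quadriceps muscle of mice with cancer cachexia, the wasting of muscle that accompanies some tumors. Members were all genes of the deposited count table whose symbol begins with mt-, which gave 37 of 53819 symbols: 13 protein genes, 2 rRNA genes and 22 tRNA genes. Of these, 15 (all protein and rRNA genes) had a summed count of at least 80 over the libraries and were tested, and the 22 tRNA genes did not reach that sum. All mice were wild-type C57BL/6J animals aged 8 weeks when the experiment began. The tumor group consisted of 4 mice given 500000 cells of the head and neck squamous carcinoma line B0092 in 200 µL under the skin of the nape, and the 4 control mice were given the same volume of PBS, the vehicle. Muscle was taken on day 36, when, by the series description, weight in the tumor group was about 10% below its starting value. Each mouse gave 1 library of polyadenylated RNA, with 28436254 to 36139478 estimated counts. The spread within a group thus joins differences between animals with any from tissue sampling and library preparation. The tumor model is a single cell line placed at 1 site.

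The mitochondrial genome is a small circular DNA present in many copies per cell. It encodes core subunits of respiratory complexes I, III, IV and V, together with the 2 rRNAs and the tRNAs that translate them. Both strands are transcribed into long precursors, and most messages are cut free at the tRNAs that lie between them, after which polyadenylation completes the stop codon of some messages. All other subunits, and every protein that copies, transcribes or translates this genome, come from nuclear genes, and oxidative muscle fibres are rich in these transcripts.

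All 37 symbols were matched to the GENCODE M21 annotation (mouse build GRCm38), which served for length, strand and sequence; no coordinates are given because the authors' build was GRCm39. Only mt-Nd6 among the protein genes lies on the strand opposite to the other 12. Neighbouring genes overlap at several places, so reads there belong to both. The end of mt-Atp8 and the start of mt-Atp6 share 43 bases, and the end of mt-Nd4l and the start of mt-Nd4 share 7. Both junctions are shown with the shared bases in capitals, since estimated counts of these pairs are not independent.
mt-Atp8 into mt-Atp6: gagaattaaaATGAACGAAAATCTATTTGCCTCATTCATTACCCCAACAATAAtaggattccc
mt-Nd4l into mt-Nd4: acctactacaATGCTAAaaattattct
The mt-Co3 message has 784 bases, 1 more than whole codons, and its last 30 bases end in a single T (capital) that polyadenylation extends to a stop codon. The lengths of mt-Nd4 and mt-Cytb also leave 1 base beyond whole codons.
mt-Co3: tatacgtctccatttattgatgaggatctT

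The nuclear genome carries copies of parts of this sequence, and 7 of the 13 protein genes had an annotated pseudogene copy with at least 99% identity over at least 250 bases. These were Gm28661 for mt-Co2 (100% over 681 bases), Gm10925 for mt-Atp6 (100% over 678), Gm28437 for mt-Co3 (100% over 783), Gm10222 for mt-Nd4l (100% over 294) and Gm28439 for mt-Nd4 (100% over 876). The remaining pair each differed at 1 base: Gm28438 from mt-Nd3 (99.7% over 345) and Gm29216 from mt-Co1 (99.8% over 483). All 7 copies lie on chromosome 1 in that annotation. The first 60 bases of mt-Co2 and of its copy, shown because the table divides reads between them, are the same letter for letter.
mt-Co2: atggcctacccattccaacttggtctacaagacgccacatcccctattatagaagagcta
Gm28661: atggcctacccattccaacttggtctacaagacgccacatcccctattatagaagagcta
The single differences are T3C for mt-Nd3 and A1066T for mt-Co1, counted from 1 at the first base of the mitochondrial gene, with the base of the mitochondrial gene first. They are shown in capitals.
mt-Nd3: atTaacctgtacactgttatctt
Gm28438: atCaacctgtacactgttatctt
mt-Co1: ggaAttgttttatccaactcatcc
Gm29216: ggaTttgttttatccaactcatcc

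The mitochondrial genome supplied a large part of the libraries in both groups. Its share of all counts was 16.3%, 13.6%, 12.9% and 22.7% in control libraries 1 to 4 and 10.2%, 14.8%, 8.16% and 7.91% in tumor libraries 1 to 4. Tumor libraries 1, 3 and 4 lay below all controls, and tumor library 2 lay among them, so the groups overlapped. The mean share of the control group was 16.4% ± 4.45 and that of the tumor group 10.3% ± 3.19 (SD, n = 4 per group), a difference of -6.10 percentage points. Without control library 4, whose share was the highest, the difference was -4.00 percentage points. Counting error was far below this spread, with a 95% Wilson interval of at most ±0.0148 percentage points in a library, which covers counting error only. The share has no p-value, because it is a sum over the chosen genes. Fewer mitochondria-rich cells and less mitochondrial RNA per cell cannot be told apart in bulk tissue.

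**Figure D1:**
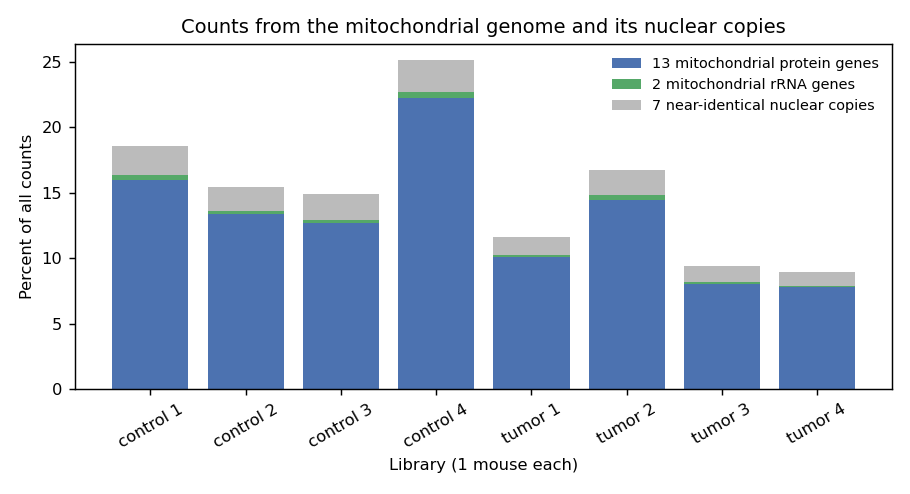
Bars give the percent of all counts in each library (1 mouse each) from the 13 mitochondrial protein genes, the 2 rRNA genes and the 7 near-identical nuclear copies. Tumor libraries 1, 3 and 4 are below every control, while tumor library 2 (14.8% without the copies) lies within the control range of 12.9% to 22.7%.

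Across single genes, the 15 tested transcripts all had a log2 fold change below 0 (49.8% of all 14070 genes tested did), from -0.99 for mt-Nd3 to -0.47 for mt-Atp8, with a median of -0.74. Over all genes tested the median was 0.00. In the edgeR quasi-likelihood test, with p-values adjusted by Benjamini-Hochberg over all genes and a threshold of 0.05, mt-Co3 and mt-Nd3 fell (2 of 15) and 0 rose. Over all genes 19.8% passed in either direction, 8.73% as lower and 11% as higher, and 2 of 15 is close to the share called lower. Leaving out any 1 library other than tumor library 2 ended both calls, in fits that called 3.35% to 8.99% of all genes lower. Leaving out tumor library 2 gave 10 of 15, where 10.1% of all genes were called lower. Without both this library and control library 4, which had the highest mitochondrial share of the controls, 7 of 15 were called lower (10.1% of all genes) and the median was -0.75.

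The 3 complex IV genes encode the catalytic core of cytochrome c oxidase, and their median log2 fold change was -0.93. mt-Co1, which carries the haem and copper site that reduces oxygen, was the most abundant transcript per length, at 30309 counts per 1000000 (CPM) per kilobase in controls and 15913 in tumor mice. Its level was 44491, 37463, 35126 and 70227 CPM in control libraries 1 to 4 and 25830, 39357, 18514 and 14641 CPM in tumor libraries 1 to 4. Only tumor library 2 reached the control range. Its log2 fold change of -0.93 ± 0.38 (SE) did not pass (edgeR, adjusted p = 0.115). mt-Co3, a core subunit without metal centres, stood at 8844, 7148, 7464 and 10772 CPM in controls and at 4952, 6326, 3556 and 2821 CPM in tumor mice. All 4 tumor values lay below all 4 control values. The mean of mt-Co3 fell 1.94-fold, from 8557 ± 1650 CPM to 4414 ± 1551 CPM (SD, n = 4 per group). Its log2 fold change was -0.96 ± 0.28 (SE; edgeR, adjusted p = 0.0425). mt-Co2, which receives electrons from cytochrome c, went from 7046 ± 1920 to 3892 ± 1429 CPM, and its groups overlapped by a single tumor value, that of library 2 (5834 CPM against 5807 CPM in control library 3). For mt-Co2 the log2 fold change was -0.86 ± 0.30 (edgeR, adjusted p = 0.0708).

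Complex I takes electrons from NADH, and 7 of its membrane subunits are encoded here. mt-Nd3, a small membrane subunit, fell 1.99-fold (log2 fold change -0.99 ± 0.30; edgeR, adjusted p = 0.0466). Its values were 1074, 824, 1057 and 1271 CPM in controls and 598, 847, 325 and 355 CPM in tumor mice. Tumor library 2 (847 CPM) was above control library 2 (824 CPM), and the other 3 tumor libraries were below all controls. mt-Nd1, a subunit next to the quinone site, had 14913 to 26566 CPM in controls and 9494 to 14746 CPM in tumor mice, without overlap. Its log2 fold change of -0.68 ± 0.28 stayed short of the threshold (edgeR, adjusted p = 0.11). mt-Co3 and mt-Nd1 were thus the 2 of 15 whose groups did not overlap, against 25% of all genes tested (11.5% with the tumor group lower).

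The proton-pumping subunits mt-Nd2, mt-Nd4 and mt-Nd5 had log2 fold changes of -0.80 ± 0.32, -0.62 ± 0.34 and -0.65 ± 0.37, and the small subunit mt-Nd4l had -0.76 ± 0.29. None of these 4 passed (adjusted p from 0.0941 to 0.24, edgeR). In each of them tumor library 2 lay within the control range and the other 3 tumor libraries lay below it, as the plot of levels by library shows. mt-Nd6, the only message of the other strand, was the rarest of the 15 per length, at 435 CPM per kilobase in controls and 274 in tumor mice. It stood at 157, 173, 121 and 454 CPM in controls and at 134, 242, 98.2 and 95.4 CPM in tumor mice, and its groups overlapped widely. Its log2 fold change of -0.67 ± 0.44 became -0.07 without control library 4.

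**Figure D2:**
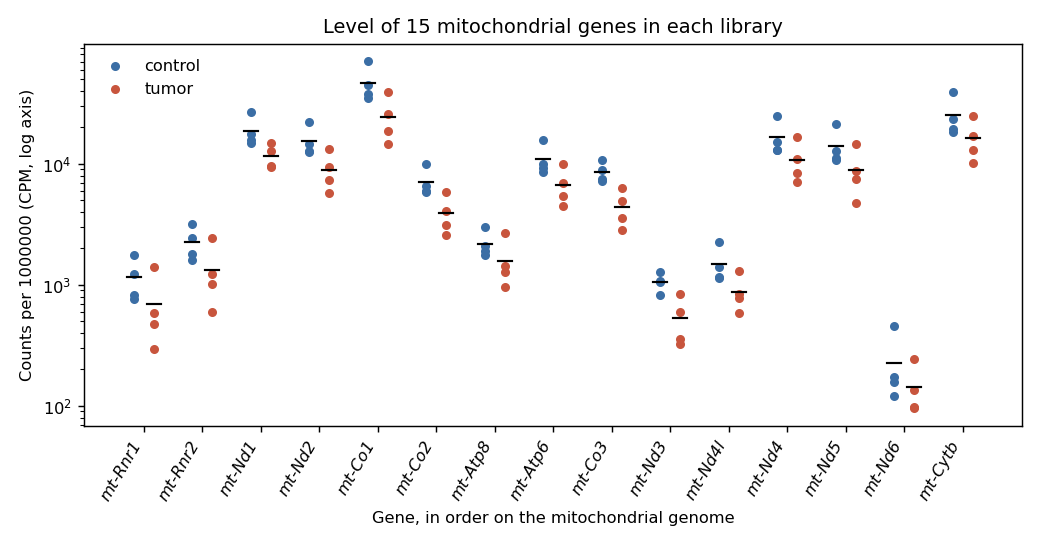
Each point is the level of 1 gene in 1 library in counts per 1000000 (log axis), with genes in their order on the mitochondrial genome and short lines at the group means. All 15 tumor means are lower than the control means, and the highest tumor value, that of library 2, reaches the control range in every gene but mt-Nd1 and mt-Co3.

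mt-Cytb, the only subunit of complex III encoded here, was next to mt-Co1 in level per length as deposited, at 22029 CPM per kilobase in controls and 14145 in tumor mice. Its values ran from 18323 to 39497 CPM in controls and from 10211 to 24676 CPM in tumor mice, and its log2 fold change was -0.64 ± 0.36 (adjusted p = 0.239, edgeR). The ATP synthase genes mt-Atp6, which forms part of the proton channel, and mt-Atp8 had log2 fold changes of -0.70 ± 0.31 (adjusted p = 0.141) and -0.47 ± 0.31 (adjusted p = 0.324). mt-Atp8 thus had the smallest difference of the 15. In tumor library 2 it stood at 2658 CPM, above control libraries 1 to 3 (1767 to 2102 CPM).

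The rRNAs of the mitochondrial ribosome carry short adenylate tails and so appear in libraries of polyadenylated RNA. The small-subunit rRNA mt-Rnr1 stood at 1240, 770, 825 and 1777 CPM in controls and at 582, 1406, 474 and 295 CPM in tumor mice. The large-subunit rRNA mt-Rnr2 stood at 2446, 1613, 1807 and 3176 CPM in controls and at 1219, 2424, 1023 and 600 CPM in tumor mice. Both rRNAs were lower in tumor libraries 1, 3 and 4 than in any control, and higher in tumor library 2 than in control libraries 2 and 3. Neither passed (log2 fold change -0.74 ± 0.46 and -0.78 ± 0.40, adjusted p = 0.282 and 0.195, edgeR). Without tumor library 2, the tumor library nearest to the controls, they were -1.39 and -1.29 and both passed (edgeR, adjusted p = 0.0268 and 0.0254). Without control library 4, the highest control, they were -0.45 and -0.57 and neither passed (edgeR, adjusted p = 0.545 and 0.377). For each 100 counts of the protein genes there were 2.02 ± 0.230 rRNA counts in controls and 1.90 ± 0.480 in tumor mice, ranges that overlapped.

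The tRNA genes were nearly uncounted, with 94 counts in all over 22 genes and 8 libraries, and 13 of them had none in any library. The highest sum was 24, for mt-Th, the histidine tRNA. A count of 0 in a library allows up to 0.083 to 0.105 CPM (3 counts of the library total) within the polyadenylated RNA that was counted. It sets no limit on the level of a tRNA in the muscle. Differences in tRNAs were not detectable in these libraries.

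**Figure D3:**
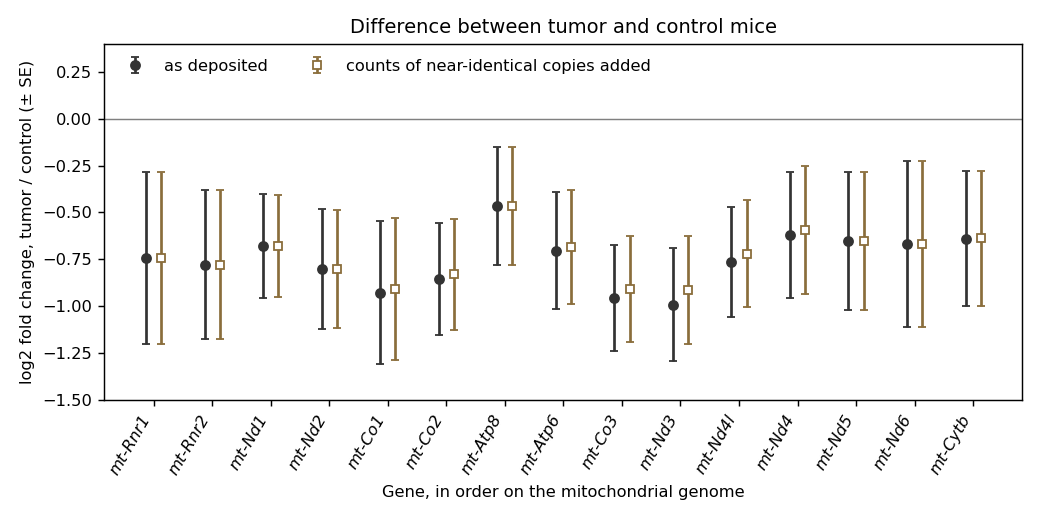
Points are log2 fold changes of tumor over control with standard errors for the 15 tested genes in genome order, from the counts as deposited (filled circles) and after adding the counts of the near-identical nuclear copies (open squares). Every point is below 0, from -0.99 for mt-Nd3 to -0.47 for mt-Atp8 as deposited, and adding the copies moves none by more than the standard error.

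In the make-up of the mitochondrial messages, the shares of mt-Co1, mt-Nd4 and mt-Cytb did not overlap between the groups as deposited. In CPM, a different measure, 25% of all genes tested did not overlap. mt-Co1 made up 28.2%, 27.9%, 26.5% and 28.3% of the counts of the 13 protein genes in control libraries 1 to 4 and 25.0%, 26.2%, 23.4% and 23.0% in tumor libraries 1 to 4, without overlap. The share of mt-Nd4 was 9.79% ± 0.192 among controls against 10.8% ± 0.261 in the tumor group (SD, n = 4 per group), also without overlap, and mt-Cytb 14.8% ± 0.874 and 16.3% ± 0.190. The range of mt-Cytb was 13.8% to 15.9% in controls and 16.02% to 16.4% in tumor mice, so the groups lay close to each other. With the copies added to their genes, the mt-Nd4 groups still did not overlap (9.22% ± 0.390 against 10.4% ± 0.412), whereas those of mt-Co1 (25.6% ± 1.16 against 22.7% ± 1.46) and mt-Cytb did. Those of mt-Nd2, which overlapped as deposited, then no longer did (8.11% to 8.29% in controls and 7.72% to 8.07% in tumor mice). These shares sum to a whole, so a lower share of 1 gene raises the others, and no p-value is given for them. mt-Nd1 was the most variable share in tumor mice, from 9.81% in library 2 to 14.9% in library 4.

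**Figure D4:**
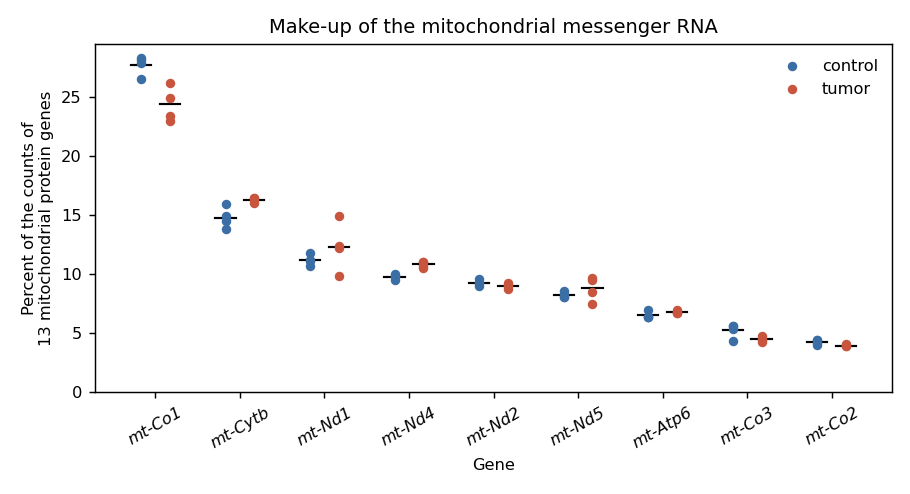
Points give the percent of the counts of the 13 mitochondrial protein genes held by each of the 9 largest of them in each library, with short lines at group means. The mt-Co1 points of the tumor libraries (23.0% to 26.2%) are below those of the controls (26.5% to 28.3%), and those of mt-Nd4 are above.

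The table gave a sizeable part of the counts to the nuclear copies whose sequence is shown above. Together the 7 copies held 2.13% ± 0.263 of all counts in controls and 1.37% ± 0.395 in tumor mice. Gm28661, identical to mt-Co2, took 49.95% to 54.9% of the summed counts of the pair in each library, that is, more than mt-Co2 in all libraries but control library 4, where the counts were nearly equal. The copies of mt-Nd3, mt-Nd4l, mt-Co3 and mt-Atp6 took 38.9% to 48.2%, 40.6% to 48.1%, 33.6% to 41.2% and 25.3% to 32.0%. The copies of mt-Nd4 and mt-Co1, which match only part of their gene, took 4.97% to 9.62% and 2.95% to 6.07%. In no pair did this split separate the groups. None of the 7 copies passed the test (8.73% of all genes were called lower), with log2 fold changes from -0.83 for Gm28437 to -0.28 for Gm28439. The groups did not overlap for Gm28437 and Gm28661, against 25% of all genes tested (11.5% with the tumor group lower).

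Adding each copy to its gene, an alternative chosen after seeing the data, changed levels more than differences. Per length, mt-Co2 in controls went from 10302 to 21486 CPM per kilobase and mt-Atp6 from 16027 to 22532. This placed mt-Atp6 above mt-Cytb (22028) in controls but not in tumor mice (14027 against 14146). The log2 fold changes moved by less than their standard errors, to -0.91 ± 0.28 for mt-Co3 (adjusted p = 0.0499) and -0.92 ± 0.29 for mt-Nd3 (adjusted p = 0.0511, edgeR). With the copies added 1 of 15 was thus called lower, against 8.73% of all genes. For mt-Co2 the groups then no longer overlapped. Estimated counts of mt-Nd6, mt-Rnr1 and mt-Rnr2 were whole numbers in all 8 libraries (within 0.01), and no annotated transcript outside the mitochondrial genome matched an rRNA at 90% identity or more.

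Fibre type genes also varied between the libraries. Myh4 encodes the myosin of the fastest, least oxidative fibres, and Myh1, Myh2 and Myh7 those of more oxidative ones. The ratio of Myh4 to the other 3 together, on the log2 scale, gave values of 2.95, 4.29, 5.60 and 0.87 in control libraries 1 to 4. Among controls the mitochondrial share was lower the higher this ratio, from 22.7% in library 4 to 12.9% in library 3. In tumor libraries 1 to 4 the ratios were 6.51, 2.03, 6.00 and 4.32, and library 2, with the lowest ratio, had the highest share (14.8%), while the other 3 did not follow this order. Tumor library 4 (ratio 4.32) had a share of 7.91% and control library 2 (ratio 4.29) a share of 13.6%, which is 1 mouse of each group. The part of fibre type in the mitochondrial share was not tested. Of the 4 myosins only Myh7, that of slow fibres, was called lower. It stood at 119, 16.4, 1.48 and 2164 CPM in control libraries 1 to 4. In tumor libraries 1 to 4 it stood at 3.03, 4.09, 1.41 and 0.115 CPM, and the groups overlapped. Myoglobin (Mb), the oxygen store of oxidative fibres, was highest in library 4 among the controls (5382 CPM) and in library 2 among the tumor mice (1206 CPM). With the myosin ratio as a covariate, 0 of the 15 passed (lowest adjusted p = 0.0531 for mt-Co3, edgeR), while 9.82% of all genes were called lower. The median log2 fold change of the 15 was then -0.50, and all 15 remained below 0.

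Markers of other cell types were read in the same libraries. The summed endothelial markers (Pecam1, Cdh5, Kdr and Tek) ran from 115 to 178 CPM in controls and from 58.7 to 104 CPM in tumor mice, and Kdr and Tek fell. The summed markers of fibro-adipogenic cells (Pdgfra, Dcn, Col1a1 and Col3a1) ran from 387 to 549 CPM and from 164 to 352 CPM, and of these Col3a1 fell. Both collagens lay lower in all tumor libraries, while the ranges of Pdgfra and Dcn overlapped, with tumor means slightly higher (16.6 against 15.2 CPM and 155 against 151 CPM). Of the 5 squamous markers, Krt5, Krt14, Krt6a and Dsg3 are listed at 0 for all libraries in the deposited table, and Trp63 was higher in the tumor group (15.7 to 36.2 CPM against 6.27 to 9.40 CPM). Sums for adipocytes, leukocytes and erythroid cells overlapped between the groups. S100a8, a neutrophil gene on the leukocyte list, was called higher at low, overlapping levels (0 to 0.405 CPM in controls and 0.386 to 2.04 CPM in tumor mice). On that list Ptprc, Cd68 and Csf1r were not called (log2 fold change -0.22, 1.77 and 0.11), and Cd3e was not tested. The part of these cells in the mitochondrial values was not tested. Of the 8 muscle markers, 7 (Acta1, Ckm, Ttn, Des, Myh4, Tnnt3 and Pygm) were at 3606 CPM or more in all libraries, and Mb went down to 76.3 CPM in tumor library 4. On this list Acta1 was called lower in tumor mice (22434 to 29218 CPM against 5088 to 17255 CPM) and Des higher (3606 to 4140 CPM against 5094 to 9112 CPM).

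The nuclear subunits of the same complexes had a median log2 fold change close to that of the mitochondrial transcripts but a smaller spread between mice. Of 73 tested, 55 fell and 0 rose (8.73% of all genes were called lower), with a median of -0.77 against -0.74 for the 15 mitochondrial transcripts. The median standard error was 0.17 for these nuclear genes and 0.32 for the mitochondrial ones. The mean log2 CPM of the nuclear subunits was 7.27 to 7.81 in controls and 6.55 to 6.97 in tumor mice, without overlap. That of the 15 mitochondrial transcripts was 12.06 to 12.96 and 10.96 to 12.31, with tumor library 2 equal to control library 1 at 12.31. Whether both sets differ from each other was not tested. By complex, the nuclear medians were -0.77 for complex I, -0.87 for complex III, -0.74 for complex IV and -0.79 for complex V. The mitochondrial ones were -0.68, -0.64, -0.93 and -0.59. The nuclear genes with the smallest p-values included Cyc1, the cytochrome c1 subunit that works beside mt-Cytb, which fell from 255 ± 72.5 to 93.1 ± 18.2 CPM. Cox5a of complex IV fell from 269 ± 45.1 to 129 ± 24.6 CPM, Ndufc1 of complex I from 62.4 ± 4.84 to 25.8 ± 3.97 CPM and Atp5j of ATP synthase from 203 ± 29.9 to 96.8 ± 13.2 CPM. Without control library 1 the count of nuclear subunits that fell was 35 (3.35% of all genes were called lower in that fit), and without tumor library 3 it was 30 (3.36%).

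**Figure D5:**
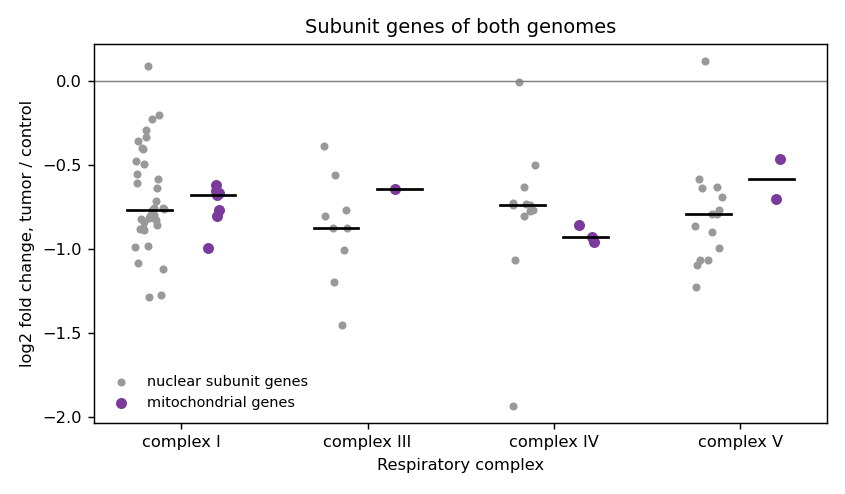
Points are log2 fold changes of tumor over control for nuclear subunit genes (grey) and mitochondrial genes (purple) of each respiratory complex, with lines at medians. Medians of both genomes lie between -0.93 and -0.59 in all 4 complexes, and nuclear points spread from -1.93 to 0.12.

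The nuclear genes that maintain and express the mitochondrial genome were called in both directions, at shares near or below those of all genes. Of 81 tested from 5 lists, 5 rose and 8 fell, the median of their log2 fold changes was -0.10, while over all genes 11% were called higher and 8.73% lower. Of 9 transcription genes, 1 rose and 1 fell. Polrmt, the mitochondrial RNA polymerase, rose from 24.4, 21.6, 23.7 and 27.9 CPM in controls to 35.4, 39.2, 36.7 and 29.4 CPM in tumor mice, without overlap (log2 fold change 0.53 ± 0.13, adjusted p = 0.0205, edgeR). Mterf2, a member of the termination factor family, fell from 8.77 ± 2.57 to 4.37 ± 0.580 CPM (adjusted p = 0.0161). Tfam, which packages the genome and starts transcription, had 37.2 to 39.9 CPM in controls and 31.0 to 36.8 CPM in tumor mice, without overlap, and its log2 fold change of -0.19 ± 0.10 did not pass (adjusted p = 0.222). The transcription factor gene Tfb2m did not pass either (0.14 ± 0.12, adjusted p = 0.416). Leaving out control library 1, 2 or 3, or tumor library 3, ended the Polrmt call (adjusted p from 0.0545 to 0.0682). That of Mterf2 was lost with control library 1 or tumor library 3 left out (edgeR, adjusted p = 0.0599 and 0.0576).

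Of 12 genes of replication and upkeep, 1 rose and 0 fell (11% of all genes were called higher and 8.73% lower). It was Ssbp1, the single-strand binding protein, which rose from 23.3 ± 0.640 to 31.8 ± 4.66 CPM (adjusted p = 0.0305, edgeR), a call that ended when any 1 control library or tumor library 2 was left out (adjusted p from 0.0536 to 0.0933), and under upper quartile scaling (0.0562) or without the count filter (0.0655). Of 20 genes of RNA processing and turnover, 2 rose and 0 fell, beside the same shares of all genes. Elac2, which cuts the 3' ends of the tRNAs that separate the messages, rose from 23.2 ± 1.43 to 39.0 ± 7.91 CPM (adjusted p = 0.0108). The exonuclease gene Rexo2 rose from 41.2 ± 6.60 to 61.5 ± 9.20 CPM (adjusted p = 0.0299), a call that ended with control library 1, 2 or 4, or tumor library 3 or 4, left out (from 0.0618 to 0.0936). Lrpprc and Slirp encode the complex that stabilises mitochondrial messages, and neither passed, with log2 fold changes of -0.18 ± 0.22 and -0.01 ± 0.12 (adjusted p = 0.612 and 0.973).

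Of 26 genes of RNA modification and ribosome assembly, 1 rose and 3 fell (11% of all genes were called higher and 8.73% lower). The assembly factor gene Malsu1 rose 1.92-fold, from 22.8 to 26.2 CPM in controls to 41.9 to 51.0 CPM in tumor mice (adjusted p = 0.00246, edgeR). The rRNA methyltransferase genes Mrm1, Mrm2 and Nsun4 fell, Mrm1 from 5.27 ± 1.16 to 1.98 ± 0.488 CPM, Mrm2 from 6.79 ± 0.350 to 2.93 ± 1.01 CPM and Nsun4 from 13.4 to 21.2 CPM in controls to 9.58 to 11.3 CPM in tumor mice. For Nsun4 the adjusted p of edgeR was 0.06 when control library 1 was left out, 0.0745 when tumor library 3 was, and 0.0731 when counts were scaled by library totals alone. Of 14 translation factor genes, 4 fell and 0 rose (8.73% of all genes were called lower), with a median of -0.37. Taco1, the translational activator of the mt-Co1 message, fell 2.73-fold, from 33.6 to 43.6 CPM in controls to 10.0 to 15.5 CPM in tumor mice (log2 fold change -1.45 ± 0.16; edgeR, adjusted p = 0.00233). Rmnd1, which supports mitochondrial translation, fell from 29.1 ± 7.29 to 16.7 ± 1.04 CPM (adjusted p = 0.0136). The elongation factor gene Tufm (log2 fold change -0.50 ± 0.15, adjusted p = 0.0405) and the release factor gene Mtrf1l (-0.61 ± 0.18, adjusted p = 0.0449) also fell. Both calls depended on single libraries and settings. Tufm did not pass in 5 of the 8 fits that left out 1 library (adjusted p from 0.0677 to 0.12: control library 1, 2 or 4, tumor library 1 or 3), and Mtrf1l did not in 6 of 8 (from 0.0662 to 0.136: control library 1, 2 or 3, tumor library 1, 2 or 3). With scaling by library totals alone Tufm had 0.14 and Mtrf1l 0.189, and without the count filter 0.0518 and 0.0757.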

How the data were processed

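Each of 8 mice gave 1 quadriceps library (Universal Plus mRNA-Seq kit), per the labels' protocols. The authors deposited a table of estimated counts per gene symbol, of which 5.08% were not whole numbers. The submitters' processing notes name STAR 2.7.9a, Salmon 1.10.1, cutadapt 3.4, R 4.2.2, Trim Galore 0.6.7 and build GRCm39; what each tool did, the annotation and the strand setting are not stated there. Estimated counts share out reads that match several sequences, which touches genes with nuclear copies.

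Counts were rounded. The filterByExpr rule of edgeR 4.0.16 (R 4.3.3; minimum count 10), with mt- genes summing to at least 80 also kept, left 14070 genes. The edgeR quasi-likelihood F test compared the groups after TMM scaling, with no covariate, using Benjamini-Hochberg adjustment across all genes tested (threshold 0.05). The standard error of a log2 fold change was its size over the root of F. CPM are TMM-scaled. Copies were sought with blastn 2.17.0 among GENCODE M21 transcripts (at least 90% identity). Mean log2 CPM used a pseudocount of 0.5.

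The members and gene lists were chosen with earlier results of these data known. Named genes were the protein and rRNA members, up to 4 called genes with the smallest p of each list of mitochondrial gene expression, Polrmt, Tfam, Tfb2m, Lrpprc and Slirp, up to 2 of each subunit list (1 of each is given in the text), and the myosins; Mb and other markers come from marker lists and were picked after their values were seen. On simulated counts of 14070 genes the test found 40.8% of 2-fold and 81.1% of 4-fold changes, and 9 of its 126 calls were unchanged genes. Alternatives covered scaling, filters, other tests (DESeq2 1.42.0, limma 3.58.1), left-out libraries, a replicate block, a fibre covariate and, chosen after seeing the data, added copies. No 2 libraries of a group agreed within sampling noise.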

Additional observations from a re-analysis of the deposited data

Results flagged for a closer look

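In the control group, mt-Nd6 stood at 454 CPM in library 4 and between 121 and 173 CPM in the other 3 libraries, a gap of 0.845 of the group's range, above Dixon's 95% limit for 4 values. The level of the light-strand message in that mouse was the only such value in 50 groups of 4 values examined (members, shares and splits between genes and copies), where chance flags about 1 in 20. In the same library there were 1.83 mt-Nd6 counts for each 1000 counts of the 12 other protein genes, against 0.913 to 1.29 in the other controls. No source used here states whether the counting used strand, and the part of reads from the opposite strand in these values was not tested.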

How the results depend on the processing

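All 15 mitochondrial transcripts stayed below 0 under every setting run. Against 2 called lower by edgeR, the count was 8 with the DESeq2 Wald test (which called 12.3% of all genes lower). It was 11 with limma-voom and quality weights (16.8%), 0 with the fibre covariate (9.82%) and 1 with copies added (8.73%). Without both control library 4 and tumor library 2 it was 7 (10.1%), also with copies added. It ran from 0 to 10 with 1 library left out, copies added or not (3.34% to 10.1%). Deviations of same-numbered mice had correlations of 0.0281, 0.131, 0.197 and 0.0158, and those of other pairs ran from -0.311 to 0.148. With 4 libraries per group these values cannot settle whether the numbers mark pairs. With a replicate block, where 6.52% of all genes were called lower, 0 of the 15 transcripts were called. Their median ran from -1.08 to -0.47 and the share difference from -7.61 to -4.00 percentage points with 1 library left out.

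Of the genes of mitochondrial gene expression, 13 fell under upper quartile scaling (11% of all genes were called lower) and 5 with library totals only (5.6%). The number that fell was 17 with quality weights (16.8%) and 4 to 11 with 1 library left out (3.35% to 10.1%). Those that rose numbered 3 without both libraries (1491 of 14136 over all genes) and 2 with the replicate block (1014 of 14070). With the fibre covariate 9 rose (1651 of 14070), and with quality weights 9 (2616 of 14070). With 1 library left out 2 to 7 rose, against 630 of 14327 to 1551 of 14392 over all genes. Nuclear subunits that fell numbered 30 to 63 with 1 library left out, where 3.36% and 10.1% of all genes were called lower. Lrpprc, called under no such setting, reached 0.029 with the fibre covariate and ran from -0.42 to 0.014 with 1 library left out. Slirp reached 0.11 with library totals only and ran from -0.074 to 0.068 with 1 library left out. Library totals only moved the median of all genes to 0.12 and the share of calls that were higher from 55.8% to 69.7%, and upper quartile scaling to 43.0%. All-gene calls ran from 1110 without control library 1 to 4982 with quality weights. The cause of these changes was not tested. For the tRNAs these libraries allowed no comparison.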
